A study of Mus musculus with 8 samples.

Results

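Knockdown of Brd9, Baf250A or Baf180 in growing mouse myoblasts was set, as a pool, against a scramble control, to describe the genes that stood on the same side of the control in every knockdown library. The 6 knockdown libraries, 2 for each of 3 shRNAs, entered at equal weight per knockdown, and the control had 2 libraries. Those are all 8 libraries of the series. A gene was counted as a member when its level in each of the 6 knockdown libraries lay above, or in each lay below, its level in both scramble libraries. By that rule 1610 of the 12420 genes tested were members (13.0%), 812 above scramble (6.54%) and 798 below it (6.43%). Among all 18092 genes with a count in any library the rule found 869 above and 1038 below, and those that did not pass the filter on low counts are not described further.

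The cells were C2C12, a myoblast line of mouse skeletal muscle that divides as single precursors and fuses into myotubes once serum is withdrawn. The knockdown cells had received lentivirus carrying an shRNA against Brd9, against Baf250A (the product of Arid1a) or against Baf180 (the product of Pbrm1). The control cells had received a lentivirus with a scrambled shRNA. All cells, controls included, had been transduced with polybrene and selected and kept in puromycin, and RNA was taken while they proliferated. The library titles name a single shRNA per target and a single scramble line. A difference that all knockdowns share relative to scramble and a peculiarity of the scramble line therefore cannot be told apart, nor can loss of a target and an off-target effect of its shRNA. Whether both libraries of each shRNA were grown and infected independently is not given in the labels, and the p-values below may therefore rest on technical spread alone.

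SWI/SNF complexes use ATP to slide or evict nucleosomes and so open promoters and enhancers to transcription factors. They share a core of subunits and an ATPase, Brg1 or Brm, and differ in accessory subunits: Arid1a marks the canonical BAF form, Pbrm1 the PBAF form, and Brd9 a smaller non-canonical form. In muscle precursors Brg1 is known for its work with MyoD at muscle genes. The comparison asks which genes moved in the same direction whichever form was depleted.

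Library depth was similar throughout, at 17763062 to 20400855 estimated counts. Scramble replicate 2 stood apart with 16402 genes detected, against 14195 to 14768 in each of the other libraries, and results that rest on 1 scramble library are given without it below. Levels are in CPM, the usual depth-scaled unit of read counts, on the TMM-scaled library size. The myoblast markers MyoD (Myod1, 101 to 366 CPM over the knockdown libraries and 154 to 157 CPM in scramble) and desmin (Des, 563 to 2065 CPM and 951 to 975 CPM) were present throughout, while Cav3, a caveolin of mature muscle, was below 1 CPM in every library.

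Each target was low only in the libraries of its own shRNA, so the pooled value of a target averages its fall with the levels in the other knockdowns. Brd9 (chromosome 13, 73937801 to 73960895, GRCm38) had 157 and 135 counts in Brd9 libraries, 768 and 838 in Baf250A libraries and 593 and 670 in Baf180 libraries, against 717 and 637 in scramble libraries. Arid1a, which lies on chromosome 4 (133679008 to 133756769), had 3618 and 3215 counts in Brd9 libraries, 1335 and 1243 in Baf250A libraries and 2747 and 3269 in Baf180 libraries, against 2834 and 2720 in scramble libraries. Pbrm1 (chromosome 14, 31019138 to 31121592) had 1365 and 957 counts in Brd9 libraries, 1483 and 2325 in Baf250A libraries and 65 and 86 in Baf180 libraries, against 876 and 969 in scramble libraries. None of the targets was a member. Pooled, Brd9 stood at a log2 fold change of −0.81 (SE 0.11, adjusted p = 0.00215), Pbrm1 at −0.87 (SE 0.19, adjusted p = 0.0186) and Arid1a at −0.35 (SE 0.10, adjusted p = 0.0507). These and all later adjusted p-values, unless another tool is named, come from edgeR's quasi-likelihood test over all genes tested, and a gene was called at an adjusted p below 0.05.

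The pooled test called 1306 genes (10.5% of those tested), of which 714 were higher (5.75%) and 592 lower (4.77%) in the knockdowns. The side rule uses the same libraries as that test, so a count of genes that meet both is a description. It comprised 510 genes called higher with all 6 knockdown libraries above scramble (4.11% of genes tested) and 388 called lower with all 6 below (3.12%), 898 in all (7.23%). A further 712 members were not called. Of the genes called, 408 (31.2%) were not members, and in 209 of these at least 1 knockdown lay in the other direction, so that a call in the pool did not by itself mean a change shared by all knockdowns. Without scramble replicate 1 the pooled test called 472 genes, and without scramble replicate 2 it called 328. In such a fit the remaining scramble library is assumed to vary as much as libraries of the other groups do. Of the 510 higher genes 199 remained called in the same direction without scramble replicate 1 and 169 without scramble replicate 2, and of the 388 lower genes 124 and 108. All 6 other omissions left 441 or more of the higher genes and 264 or more of the lower genes called.

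**Figure D1:**
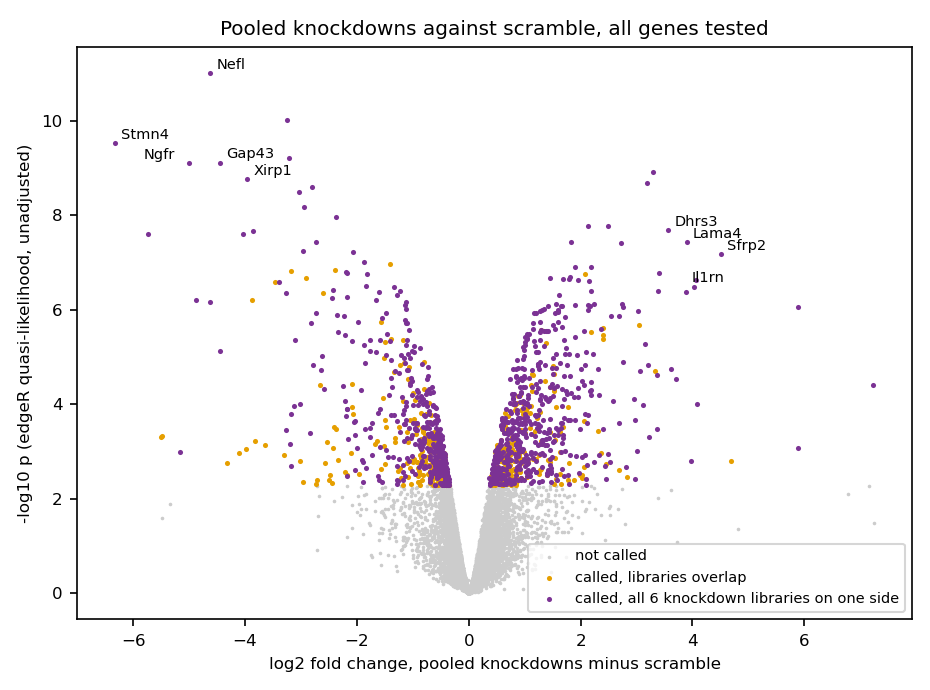
Log2 fold change of the pooled knockdowns against scramble (horizontal axis) and −log10 of the unadjusted p (vertical axis) for the 12420 genes tested, 1 point per gene. Purple points are the 898 genes called with all 6 knockdown libraries on the same side of scramble, orange points the 408 genes called whose libraries overlap.

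A group of 2 libraries stood apart from the other 6 in many genes whichever group was taken. Both Brd9 libraries lay beyond all others in 1675 genes (13.5%), both Baf250A libraries in 4503 (36.3%), both Baf180 libraries in 6129 (49.3%) and both scramble libraries, which is the side rule itself, in 1610 (13.0%). The count for scramble was near that for Brd9 and below those for Baf250A and Baf180, and these differences were not tested. The 3 knockdowns also differed among themselves at an adjusted p below 0.05 in 8438 genes (67.9%), by a test that does not use scramble. That share was 65.3% among the 510 higher genes (333) and 67.8% among the 388 lower genes (263), both near the share over all genes tested.

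The size of the change was summarised per knockdown. In the 510 higher genes the median log2 fold change was 1.10 pooled, and 1.04 for Brd9, 1.02 for Baf250A and 1.20 for Baf180, against a median of −0.01 over all genes tested. In the 388 lower genes it was −0.80 pooled, and −0.66, −0.93 and −0.77 in the same order. The 3 knockdown values spanned less than 0.5 on the log2 scale in 129 of the higher genes (25.3%) and 117 of the lower genes (30.2%), against 22.8% of all genes tested. Among the higher genes Baf180 had the highest level of the 3 knockdowns in 240 (47.1%, against 42.0% of all genes tested). Among the lower genes Baf250A had the lowest level in 185 (47.7%, against 37.9% of all genes tested).

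Changes were ranked among called members with a mean of at least 5 CPM over the 8 libraries. The 10 largest rises were in Sfrp2, Lama4, Il1rn, Dhrs3, Aoc3, Igdcc4, Fndc1, Svep1, Lpl and Spon2. Below that level, Lama1 (pooled log2 fold change 4.06) and Adam23 (4.02), among others, rose more than most of these. Sfrp2 (chromosome 3, 83765750 to 83774314), a secreted frizzled-related protein that modulates Wnt signalling, stood at 83.0 and 53.7 CPM in Brd9 libraries, 30.3 and 27.3 CPM in Baf250A libraries and 46.5 and 51.9 CPM in Baf180 libraries, against 2.64 and 1.39 CPM in scramble libraries. The lowest knockdown library was thus far above the higher scramble library, and Brd9 libraries were highest (pooled log2 fold change 4.5, SE 0.29, adjusted p = 3.17e-05). Lama4, the laminin alpha 4 chain of basement membranes, stood at 4.90 and 3.72 CPM in Brd9 libraries, 28.1 and 27.3 CPM in Baf250A libraries and 22.4 and 20.1 CPM in Baf180 libraries, against 1.07 and 0.751 CPM in scramble libraries. The Brd9 libraries lay between scramble and the other knockdowns (log2 fold change 3.90, SE 0.24, adjusted p = 2.08e-05). Dhrs3, a reductase that turns retinaldehyde back into retinol, stood at 23.3 and 26.4 CPM in Brd9 libraries, 19.4 and 15.7 CPM in Baf250A libraries and 35.1 and 28.8 CPM in Baf180 libraries, against 1.91 and 2.14 CPM in scramble libraries. Every knockdown library was well above scramble, with Baf250A lowest and Baf180 highest (log2 fold change 3.57, SE 0.20, adjusted p = 1.54e-05).

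Svep1 and Fndc1 were the most precisely measured of the large rises. Svep1 (chromosome 4, 58042796 to 58206596), a large secreted adhesion protein of the matrix, stood at 63.6 and 66.2 CPM in Brd9 libraries, 71.5 and 71.5 CPM in Baf250A libraries and 212 and 203 CPM in Baf180 libraries, against 12.1 and 9.54 CPM in scramble libraries. Brd9 and Baf250A libraries stood at like levels and Baf180 libraries above them (log2 fold change 3.19, SE 0.14, adjusted p = 2.79e-06). Fndc1, a fibronectin type III domain protein, stood at 43.3 and 39.8 CPM in Brd9 libraries, 26.9 and 25.2 CPM in Baf250A libraries and 98.5 and 102 CPM in Baf180 libraries, against 4.83 and 4.91 CPM in scramble libraries. Here too Baf180 was highest (log2 fold change 3.29, SE 0.14, adjusted p = 2.18e-06). Il1rn, the secreted antagonist of the interleukin-1 receptor, stood at 15.3 and 8.43 CPM in Brd9 libraries, 31.4 and 35.2 CPM in Baf250A libraries and 12.1 and 13.8 CPM in Baf180 libraries, against 1.35 and 0.982 CPM in scramble libraries. Baf250A libraries were highest (log2 fold change 3.88, SE 0.31, adjusted p = 9.38e-05).

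The other large rises were uneven among the knockdowns, except for Spon2. Spon2, a spondin of the matrix, stood at 10.6 and 7.02 CPM in Brd9 libraries, 10.8 and 5.63 CPM in Baf250A libraries and 11.5 and 7.53 CPM in Baf180 libraries, against 1.12 and 0.982 CPM in scramble libraries. The 3 knockdowns overlapped each other, with log2 fold changes of 3.05, 2.95 and 3.17 (pooled 3.06, SE 0.38, adjusted p = 0.00109). Igdcc4, a receptor of the immunoglobulin superfamily, stood at 13.9 and 12.4 CPM in Brd9 libraries, 0.855 and 1.14 CPM in Baf250A libraries and 8.29 and 9.0 CPM in Baf180 libraries, against 0.505 and 0.405 CPM in scramble libraries. Its Baf250A libraries were only just above scramble, so the pooled log2 fold change of 3.39 (SE 0.27) describes mainly the other knockdowns. Aoc3, a cell-surface amine oxidase of vessels and fat (3.41, SE 0.25), was lowest of the knockdowns in Baf250A libraries, at 2.92 and 3.15 CPM against 0.674 and 0.751 CPM in scramble libraries. Lpl, the lipoprotein lipase (3.15, SE 0.34), was lowest in Baf180 libraries, at 2.43 and 5.07 CPM against 1.40 and 1.33 CPM in scramble libraries.

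**Figure D2:**
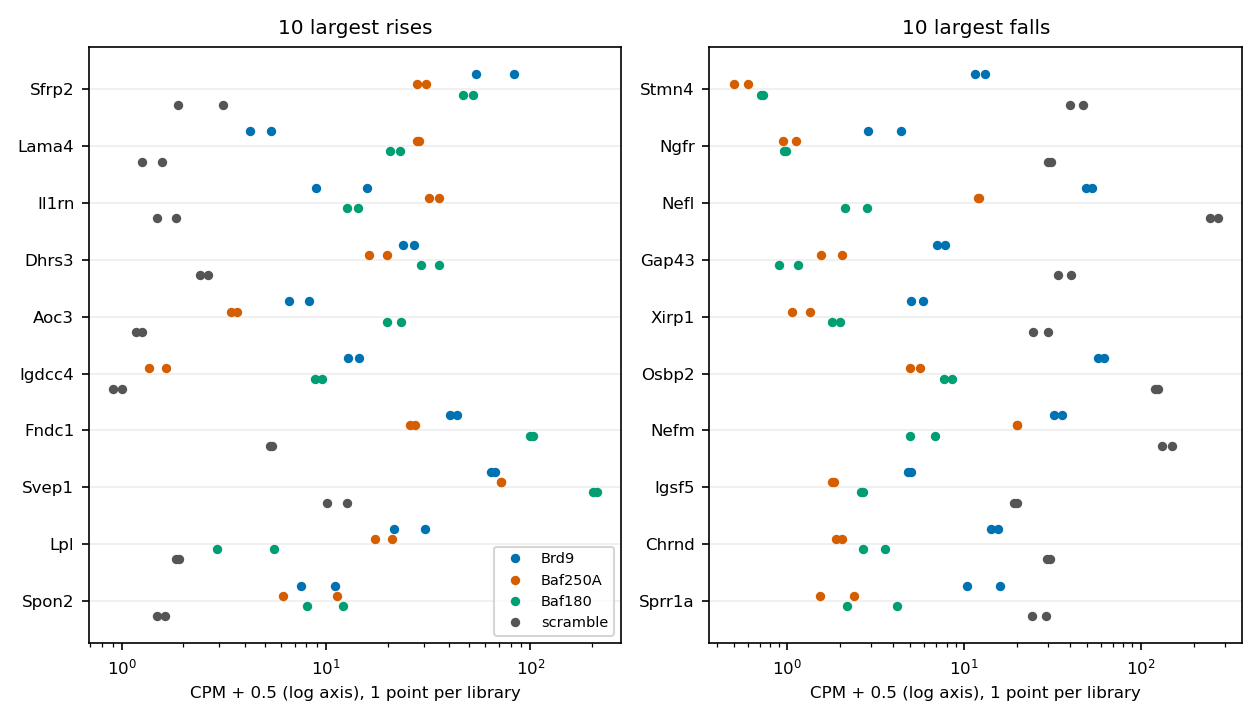
CPM plus 0.5 on a log axis for the 10 largest rises (left) and the 10 largest falls (right), 1 point per library, coloured by shRNA. Genes were ranked among called members with a mean of at least 5 CPM over the 8 libraries. Within each gene the scramble points lie to the left of all knockdown points in the left panel and to the right of them in the right panel.

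With the same limit of 5 CPM, the largest falls were led by genes best known from neurons that growing C2C12 cells also express. Called members below that level, such as Wnt7b (pooled log2 fold change −4.03), were left out of the ranking. Nefl (chromosome 14, 68083863 to 68089095), the neurofilament light chain, stood at 48.7 and 52.4 CPM in Brd9 libraries, 11.8 and 11.5 CPM in Baf250A libraries and 1.62 and 2.35 CPM in Baf180 libraries, against 273 and 246 CPM in scramble libraries. The order of the knockdowns was clear, with Brd9 nearest to scramble and Baf180 farthest (pooled log2 fold change −4.62, SE 0.11, adjusted p = 1.19e-07). Nefm (chromosome 14, 68119545 to 68125004), the medium chain encoded next to it, stood at 35.3 and 32.1 CPM in Brd9 libraries, 19.4 and 19.5 CPM in Baf250A libraries and 6.38 and 4.47 CPM in Baf180 libraries, against 150 and 131 CPM in scramble libraries. Its knockdowns had the same order (log2 fold change −3.21, SE 0.12, adjusted p = 1.59e-06). Gap43, a growth cone protein, stood at 6.54 and 7.38 CPM in Brd9 libraries, 1.06 and 1.55 CPM in Baf250A libraries and 0.406 and 0.655 CPM in Baf180 libraries, against 40.2 and 33.8 CPM in scramble libraries. All knockdown libraries were below the lower scramble library by a wide margin (log2 fold change −4.44, SE 0.18, adjusted p = 1.59e-06).

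Stmn4, a stathmin that binds tubulin in neurons, was almost lost in Baf250A and Baf180 libraries. It stood at 12.7 and 11.2 CPM in Brd9 libraries, 0 and 0.103 CPM in Baf250A libraries and 0.232 and 0.218 CPM in Baf180 libraries, against 47.0 and 39.6 CPM in scramble libraries (adjusted p = 1.22e-06). The Baf250A libraries held 2 counts together, against 1522 in the scramble libraries, a ratio of 0.00118 with a 95% exact interval of 0.000142 to 0.00425 that covers counting error only. Ngfr, the low-affinity neurotrophin receptor p75, stood at 2.38 and 3.93 CPM in Brd9 libraries, 0.453 and 0.620 CPM in Baf250A libraries and 0.464 and 0.491 CPM in Baf180 libraries, against 30.5 and 29.3 CPM in scramble libraries. Baf250A and Baf180 libraries were at like levels there (pooled log2 fold change −4.99, SE 0.20, adjusted p = 1.59e-06).

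Falls outside the neural genes included muscle and lipid genes. Osbp2 (chromosome 11, 3703731 to 3863999), an oxysterol-binding protein, stood at 57.4 and 61.3 CPM in Brd9 libraries, 5.18 and 4.44 CPM in Baf250A libraries and 8.12 and 7.26 CPM in Baf180 libraries, against 125 and 121 CPM in scramble libraries. Brd9 libraries lay between scramble and the far lower Baf250A and Baf180 libraries (pooled log2 fold change −3.24, SE 0.10, adjusted p = 6.00e-07). Xirp1 (chromosome 9, 120013755 to 120023598), a Xin actin-binding protein of striated muscle, stood at 4.51 and 5.39 CPM in Brd9 libraries, 0.855 and 0.568 CPM in Baf250A libraries and 1.51 and 1.31 CPM in Baf180 libraries, against 24.0 and 29.5 CPM in scramble libraries (log2 fold change −3.97, SE 0.17, adjusted p = 2.65e-06). Igsf5, a junctional adhesion protein of the immunoglobulin superfamily, stood at 4.56 and 4.35 CPM in Brd9 libraries, 1.31 and 1.34 CPM in Baf250A libraries and 2.20 and 2.13 CPM in Baf180 libraries, against 18.9 and 19.4 CPM in scramble libraries (−3.03, SE 0.14, adjusted p = 3.69e-06). Both genes had the order Brd9, Baf180, Baf250A from high to low below scramble. Sprr1a, a small proline-rich protein of cornified envelopes that injured neurons also make, fell by 2.82 on the log2 scale (SE 0.27, adjusted p = 0.000221), with Brd9 libraries at 9.99 and 15.6 CPM and scramble libraries at 23.9 and 28.7 CPM.

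Evenness was ranked among called members with an absolute log2 fold change of at least 1 in every knockdown, and the 4 most even rises were Adgrl2, Tgm2, Adamtsl3 and Slit2. Slit2 (chromosome 5, 47981291 to 48307735), a secreted ligand of Robo receptors, stood at 66.0 and 46.3 CPM in Brd9 libraries, 53.1 and 69.1 CPM in Baf250A libraries and 52.1 and 55.1 CPM in Baf180 libraries, against 18.5 and 20.1 CPM in scramble libraries. The knockdowns overlapped each other and none overlapped scramble, with log2 fold changes of 1.54, 1.66 and 1.47 (pooled 1.56, SE 0.18, adjusted p = 0.000628). Adamtsl3, an ADAMTS-like protein of microfibrils, stood at 44.5 and 35.8 CPM in Brd9 libraries, 36.8 and 46.4 CPM in Baf250A libraries and 34.5 and 39.4 CPM in Baf180 libraries, against 12.4 and 12.6 CPM in scramble libraries (pooled 1.66, SE 0.16, adjusted p = 0.000253). Adgrl2, the adhesion receptor latrophilin 2, and Tgm2, the tissue transglutaminase that crosslinks matrix proteins, rose by 1.04 (SE 0.16, adjusted p = 0.00341) and 1.20 (SE 0.20, adjusted p = 0.00536). Adgrl2 was no longer called without scramble replicate 2 (adjusted p = 0.0709), and Tgm2 without scramble replicate 1 (adjusted p = 0.0625) or 2 (adjusted p = 0.0866).

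Under the same limits the 4 most even falls were Pde2a, Wwc1, Col7a1 and Mfsd2a, although all but Pde2a differed among the knockdowns. Pde2a, a phosphodiesterase that cyclic GMP stimulates, stood at 8.10 and 8.38 CPM in Brd9 libraries, 10.5 and 8.47 CPM in Baf250A libraries and 12.3 and 9.77 CPM in Baf180 libraries, against 28.4 and 27.6 CPM in scramble libraries (pooled log2 fold change −1.56, SE 0.14, adjusted p = 0.000189). Wwc1 (chromosome 11, 35838399 to 35980527), the Hippo pathway scaffold KIBRA, stood at 4.02 and 3.51 CPM in Brd9 libraries, 2.26 and 2.48 CPM in Baf250A libraries and 2.84 and 2.35 CPM in Baf180 libraries, against 12.7 and 13.4 CPM in scramble libraries (−2.19, SE 0.16, adjusted p = 5.87e-05). Both genes were well below scramble in every knockdown, and the Brd9 libraries of Wwc1 were above those of the other knockdowns. Col7a1, the collagen of anchoring fibrils, fell by 1.39 (SE 0.16) and Mfsd2a, a transporter of lysophosphatidylcholine, fell by 1.41 (SE 0.15), both on the log2 scale. Baf250A libraries were the lowest for each of them, at 2.82 and 2.38 CPM for Col7a1 against 8.76 and 10.2 CPM in scramble libraries.

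The 6 knockdown libraries were also treated as 1 group, so that differences between the knockdowns counted as error, together with the spread within each. That fit took both libraries of each knockdown as independent although they share an shRNA, so its p-values may be too small. It called 25 genes (0.201%), 21 higher and 4 lower, and 910 genes had an unadjusted p below 0.05. All 25 were members. This set was chosen after its values were seen. Its higher genes included the basement membrane genes Nid2 and Lama1, the metalloprotease family genes Adamts2, Adamts5, Adamtsl3 and Adam23, the Wnt modulators Sfrp1 and Sfrp2 and the complement protease C1s1. Its lower genes were Dok7, Wwc1, Pde2a and Prss37. The fit favours genes that stand far and evenly from scramble in these same libraries, so the membership of all 25 is a description and not support. Vdr, the nuclear receptor for vitamin D, stood at 229 and 236 CPM in Brd9 libraries, 340 and 329 CPM in Baf250A libraries and 229 and 207 CPM in Baf180 libraries, against 74.9 and 69.8 CPM in scramble libraries (log2 fold change 1.83, SE 0.11). Txnip, an inhibitor of thioredoxin and of glucose uptake, stood at 39.4 and 36.4 CPM in Brd9 libraries, 31.1 and 29.3 CPM in Baf250A libraries and 33.9 and 38.1 CPM in Baf180 libraries, against 9.83 and 10.0 CPM in scramble libraries (1.80, SE 0.13). Boc, a hedgehog co-receptor that promotes myoblast fusion, stood at 25.1 and 24.1 CPM in Brd9 libraries, 35.9 and 31.4 CPM in Baf250A libraries and 30.3 and 29.1 CPM in Baf180 libraries, against 8.93 and 10.3 CPM in scramble libraries (1.59, SE 0.14). In each of these genes every knockdown library was well above both scramble libraries.

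**Figure D3:**
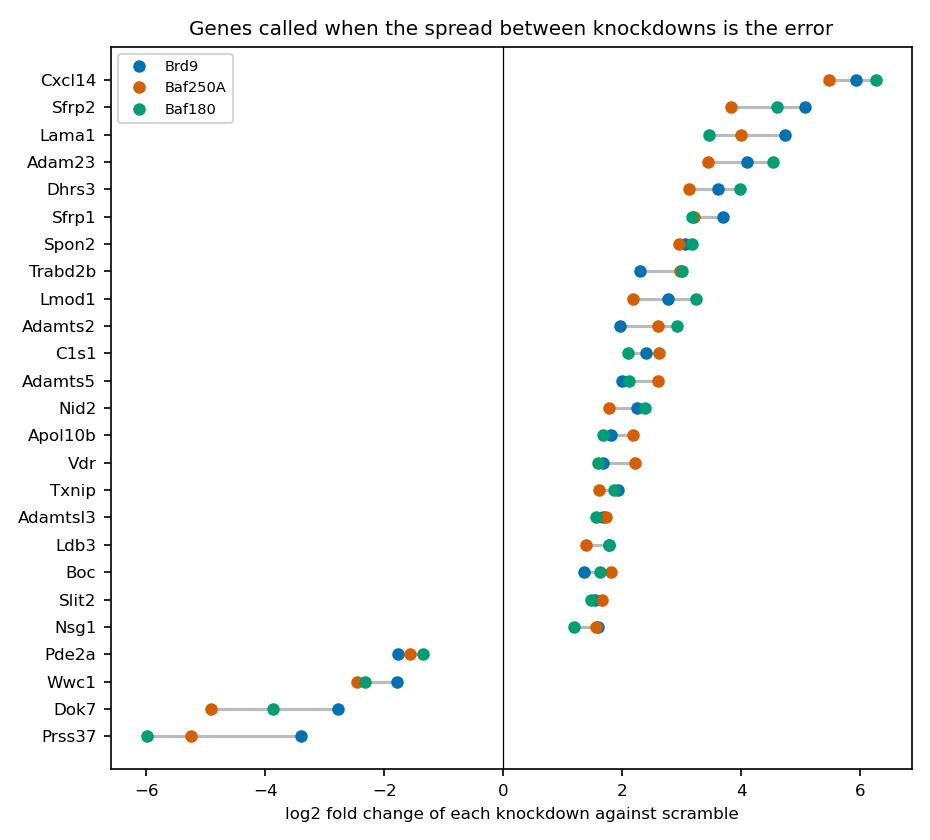
Log2 fold change against scramble for each knockdown (horizontal axis, 1 point per knockdown) in the 25 genes called with the 6 knockdown libraries treated as 1 group. The 3 points of each gene lie on the same side of 0, with 21 genes to the right and 4 to the left.

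Values in parentheses after a gene are pooled log2 fold changes from here on. Gene lists are described by their called members and median, beside those of all genes tested (5.75% higher, 4.77% lower, median log2 fold change −0.01). List counts from other fits have other backgrounds. With GC and length offsets in the fit, 1419 of the 12420 genes tested were called higher and 2018 lower. The fits without a scramble library called fewer genes in total than the main fit. Genes of the extracellular matrix were mostly higher. Of 52 tested, 30 rose and 3 fell, 23 and 2 of them with all 6 libraries on one side, and the list's median was 0.75. Nid2, the basement membrane linker nidogen 2, stood at 324 and 299 CPM in Brd9 libraries, 232 and 219 CPM in Baf250A libraries and 333 and 359 CPM in Baf180 libraries, against 69.9 and 62.1 CPM in scramble libraries. No knockdown library came near scramble (log2 fold change 2.13, SE 0.12, adjusted p = 1.41e-05). The rises included the fibrillar collagens Col1a1 (1.01), Col1a2 (0.84), Col3a1 (0.73) and Col5a2 (1.00), the collagen VI chains Col6a1 (1.36), Col6a2 (2.17) and Col6a3 (1.20), and the small matrix proteins Fmod (2.75), Fbln5 (1.90) and Mfap5 (2.96). The falls were Loxl2 (−1.23), a lysyl oxidase, Tnc (−1.13), tenascin C, and Fn1 (−0.46), fibronectin, whose libraries overlapped scramble. Without scramble replicate 1 or 2 the counts were 17 higher and 2 lower in each fit.

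Proteases of the matrix and their inhibitors followed with 7 of 25 higher and 1 lower (median 0.39). Adamts2, which trims procollagen, stood at 34.9 and 31.9 CPM in Brd9 libraries, 55.3 and 48.5 CPM in Baf250A libraries and 68.2 and 61.3 CPM in Baf180 libraries, against 8.65 and 8.55 CPM in scramble libraries (2.49, SE 0.14). Adamts5, which cleaves aggrecan and versican, stood at 34.6 and 29.2 CPM in Brd9 libraries, 42.4 and 54.7 CPM in Baf250A libraries and 29.3 and 39.9 CPM in Baf180 libraries, against 8.03 and 7.98 CPM in scramble libraries (2.24, SE 0.19). Mmp2, a gelatinase, rose by 0.95 and Plaur, the urokinase receptor, fell by 0.54. Proteases called higher numbered 4 without scramble replicate 1 and 2 without scramble replicate 2, while GC and length offsets gave 16.

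Smooth muscle genes were higher in 8 of 12 and lower in none (median 1.12). Lmod1, a leiomodin that nucleates actin, stood at 34.2 and 40.1 CPM in Brd9 libraries, 26.0 and 23.3 CPM in Baf250A libraries and 51.7 and 50.7 CPM in Baf180 libraries, against 6.12 and 4.74 CPM in scramble libraries (2.73, SE 0.17, adjusted p = 2.12e-05). Cnn1, the actin-binding calponin 1, stood at 110 and 128 CPM in Brd9 libraries, 189 and 177 CPM in Baf250A libraries and 92.8 and 76.9 CPM in Baf180 libraries, against 36.2 and 34.0 CPM in scramble libraries (1.80, SE 0.13, adjusted p = 6.50e-05). The rises also held Mylk (2.02), the myosin light chain kinase, Actg2 (1.71) and Acta2 (1.25), the smooth muscle actins, and Tagln (0.93), transgelin. Myocd, the coactivator that defines the smooth muscle programme, was below 1 CPM in every library. In each fit without a scramble library 7 were called higher.

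Neural genes had the lowest median of the 41 lists, at −2.11: 10 of 15 tested were lower and 1 higher. Besides Nefl, Nefm, Gap43, Stmn4 and Ngfr they included L1cam, a neural adhesion molecule, at 20.3 and 21.2 CPM in Brd9 libraries, 2.06 and 1.5 CPM in Baf250A libraries and 1.04 and 1.47 CPM in Baf180 libraries, against 26.2 and 21.7 CPM in scramble libraries (−2.73, SE 0.17). The Brd9 libraries lay just under scramble and the others far below. Stmn2, another stathmin, fell by 1.28, with Baf250A libraries at 19.2 and 19.7 CPM and scramble libraries at 144 and 133 CPM. The higher gene was Ncam1 (0.50), which myoblasts also express. The median for Brd9 alone was −0.34, against −3.62 for Baf250A and −1.06 for Baf180. Of the 29 listed genes in the table, 15 were below 1 CPM in every library, among them Elavl3, Syp and Sox10, and Snap25 had no count. The summed level of the list was 169 to 595 CPM in knockdown libraries and 897 to 983 CPM in scramble libraries. Fewer cells expressing such genes and less RNA per cell cannot be told apart in bulk RNA. In each fit without a scramble library 9 were called lower.

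Genes of the neuromuscular synapse were lower in 5 of 15 and higher in 2 (median −0.12). The list's median was negative for Baf250A only, at −1.04, against 0.15 for Brd9 and 0.13 for Baf180. Dok7, the adaptor that activates the kinase MuSK, stood at 1.36 and 2.51 CPM in Brd9 libraries, 0.453 and 0.413 CPM in Baf250A libraries and 0.985 and 0.818 CPM in Baf180 libraries, against 13.4 and 13.2 CPM in scramble libraries (−3.86, SE 0.22, adjusted p = 1.54e-05). Chrnd, the delta subunit of the acetylcholine receptor, stood at 13.8 and 15.0 CPM in Brd9 libraries, 1.56 and 1.39 CPM in Baf250A libraries and 3.07 and 2.18 CPM in Baf180 libraries, against 29.1 and 30.2 CPM in scramble libraries (−2.95, SE 0.15). Both were below scramble in every knockdown, with Baf250A lowest. Chrna1, the alpha subunit, was called lower (−1.41) on Baf250A alone, at 16.1 and 15.8 CPM there, 304 and 325 CPM in Brd9 libraries and 313 and 269 CPM in Baf180 libraries, against 302 and 302 CPM in scramble libraries. Lrp4, the agrin co-receptor, rose by 1.68. The synapse list had 1 higher and 4 lower genes in each fit without a scramble library.

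**Figure D4:**
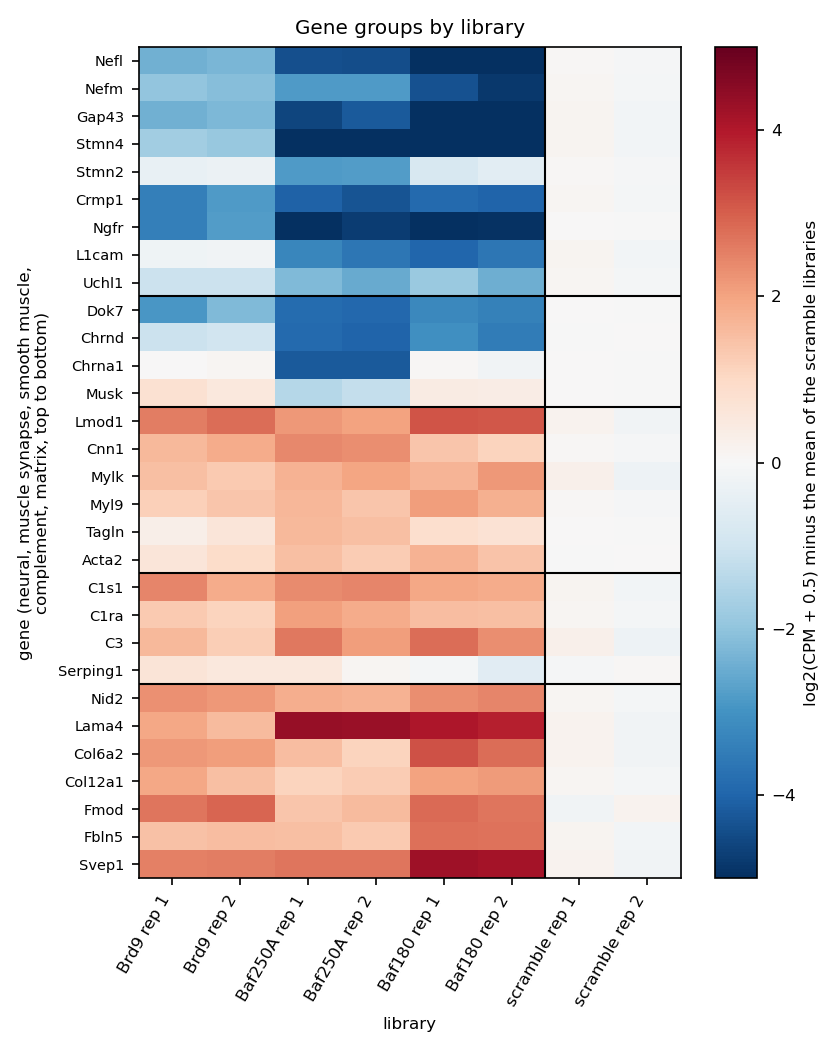
Heatmap of log2(CPM + 0.5) minus the scramble mean, with 1 column per library and genes in rows by group (neural, synapse, smooth muscle, complement, matrix). Colours saturate at ±5. The rows are selected genes, and Ncam1, Lrp4, Loxl2, Tnc and Fn1, called in the other direction from most of their group, are not shown. Of the genes shown, the neural and synapse genes are mostly below scramble and the smooth muscle and matrix genes mostly above it. That direction follows from the selection and describes only these genes.

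Muscle genes had no single direction. Of 31 myogenic regulators 6 rose and 3 fell (median 0.34), and of 31 muscle structural genes 6 rose and 5 fell (median 0.47). The median of the structural genes was 0.60 for Brd9, −0.22 for Baf250A and 0.62 for Baf180. Msc, the MyoD inhibitor musculin, stood at 1.99 and 2.67 CPM in Brd9 libraries, 0 and 0 CPM in Baf250A libraries and 0.464 and 0.709 CPM in Baf180 libraries, against 4.89 and 5.43 CPM in scramble libraries (adjusted p = 0.000126). Baf250A libraries had 0 counts against 181 in scramble, which at a floor of 3 counts over the group bounds the ratio at no more than 0.0148. Fst, the myostatin antagonist follistatin, stood at 13.9 and 12.2 CPM in Brd9 libraries, 16.0 and 19.9 CPM in Baf250A libraries and 17.6 and 27.4 CPM in Baf180 libraries, against 5.67 and 6.65 CPM in scramble libraries (1.5, SE 0.22, adjusted p = 0.00265). Ldb3, a Z-disc protein, rose by 1.65 and Tnnt2, the cardiac form of troponin T, fell by 1.13. The myoblast marker list had 1 of 11 higher and 6 lower, and its median of −0.56 covered −0.02 for Brd9, −1.40 for Baf250A and 0.81 for Baf180. The counts without scramble replicate 1 were 2 higher and 2 lower regulators, 3 and 4 structural genes and 1 and 3 myoblast markers. The counts without scramble replicate 2 were 2 higher and 1 lower regulator, 2 and 3 structural genes and 0 and 3 myoblast markers, and with GC and length offsets 14 regulators were higher.

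Chemokine, cytokine and complement genes were higher in 21 of 43 and lower in 6 (median 0.60). Cxcl14, a chemokine, had 154 counts in Brd9 libraries, 111 in Baf250A libraries and 174 in Baf180 libraries, against 2 in scramble libraries. The ratios to scramble were 68.1 (95% exact interval 18.5 to 567), 49.6 (13.4 to 415) and 85.9 (23.4 to 715), counting error only. The complement proteases C1s1 (2.37) and C1ra (1.59) and the central component C3 (2.32) rose, as did Cxcl12 (1.72), a chemokine for progenitor cells, and Csf1 (1.15), the macrophage growth factor. C3 stood at 8.29 and 6.13 CPM in Brd9 libraries, 17.1 and 11.6 CPM in Baf250A libraries and 19.3 and 13.6 CPM in Baf180 libraries, against 2.86 and 1.91 CPM in scramble libraries. Il11 (−2.04), Ccl5 (−1.72), Tnfaip3 (−0.75) and Il34 (−0.94) fell with all 6 libraries below scramble. Without scramble replicate 1 there were 13 higher and 0 lower genes, and without scramble replicate 2 there were 12 and 0.

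Among signalling lists the Wnt pathway had 10 of 32 higher and 2 lower (median 0.43). The rises were led by the secreted modulators Sfrp2 (4.5) and Sfrp1 (3.36) and by Ccn5 (2.69), a matricellular Wnt target. They also included the feedback inhibitor Nkd2 (2.09), the receptors Fzd4 (1.53), Fzd1 (1.12) and Fzd7 (0.79), and the ligand Wnt4 (1.29). Lef1, the nuclear effector, fell by 0.71. Among all genes tested, the ligand Wnt7b fell further (−4.03). Its means were 1.78 CPM in Brd9 libraries, 0.306 CPM in Baf250A libraries and 0.336 CPM in Baf180 libraries, against 9.39 CPM in scramble libraries. The pathway had 6 higher and 0 lower genes without scramble replicate 1, and 7 and 0 without scramble replicate 2. Of the TGF-beta and BMP pathway 16 of 45 rose and none fell (median 0.36), with the ligands Bmp4 (2.06), Tgfb3 (1.27) and Inhbb (1.15), the inhibitory Smad6 (1.34) and the BMP targets Id1 (0.61) and Id3 (0.80). Tgfb3 stood at 108 and 111 CPM in Brd9 libraries, 140 and 119 CPM in Baf250A libraries and 233 and 225 CPM in Baf180 libraries, against 61.9 and 60.7 CPM in scramble libraries. Without scramble replicate 1 or 2, 5 genes of that pathway were called higher in each fit, and with GC and length offsets 20 were higher and 2 lower.

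Growth factor lists were split. In the FGF and ERK list 5 of 26 rose and 7 fell (median 0.06), the falls including the ERK phosphatases Dusp4 (−0.73), Dusp5 (−0.58) and Dusp6 (−0.60) and the ERK-responsive factor Etv4 (−0.85). Dusp4 stood at 54.7 and 54.9 CPM in Brd9 libraries, 51.0 and 52.4 CPM in Baf250A libraries and 49.2 and 51.8 CPM in Baf180 libraries, against 85.6 and 87.3 CPM in scramble libraries, a fall of the same size in each knockdown. In the IGF and PDGF list 5 of 20 rose and 2 fell (median 0.28), with Pdgfra (1.74) and Pdgfrb (0.84) higher and the binding protein Igfbp2 (−2.37) lower. In the Notch list 5 of 16 rose and 1 fell (median 0.22). The fall was the ligand Jag2 (−1.09), while the receptor Notch3 (1.38) was higher in Brd9 and Baf180 libraries and overlapped scramble in Baf250A libraries, at 45.9 and 37.3 CPM against 42.8 and 38.5 CPM. In axon guidance 7 of 45 rose and 3 fell (median 0.15), in the cadherins 6 of 18 rose and 2 fell (0.23) and in the integrins 4 of 16 rose and 2 fell (0.05). Fat1, a giant cadherin, rose by 1.17 and Itga11, a collagen receptor, by 2.54. Leaving out a scramble library lowered most of these counts. The higher and lower counts without scramble replicate 1 were 1 and 1 for FGF and ERK, 3 and 1 for IGF and PDGF, 3 and 1 for Notch, 3 and 1 for axon guidance, 4 and 1 for cadherins and 2 and 0 for integrins. The counts without scramble replicate 2 were 1 higher and 1 lower for FGF and ERK, Notch and the cadherins, 3 and 1 for IGF and PDGF, 2 and 1 for axon guidance and 1 and 0 for integrins. With GC and length offsets axon guidance had 12 higher and 10 lower genes, Notch 6 and 3 and the integrins 6 and 5.

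Calls in the growth and translation lists were all lower, small and dependent on both scramble libraries. Among 77 ribosomal protein genes there were 7 falls and no rises (median −0.27). The counts for ribosome biogenesis were 6 of 43 (median −0.30), for DNA replication 5 of 52 (−0.21) and for mitosis 2 of 50 (−0.20), with no rises. The share in mitosis was below the 4.77% of all genes tested. In Baf250A libraries the medians for ribosome biogenesis, DNA replication and mitosis were not lowered, at 0.006, 0.07 and 0.03. They were −0.55, −0.42 and −0.25 in Brd9 libraries and −0.36, −0.22 and −0.50 in Baf180 libraries. Genes called lower with all 6 knockdown libraries below scramble were 6 for ribosomal proteins, 2 for ribosome biogenesis, 3 for DNA replication and 2 for mitosis. The helicase cofactor Mcm10 (−0.48), the flap endonuclease Fen1 (−0.41), the box C/D protein Nop56 (−0.58) and the mitotic ubiquitin enzyme Ube2c (−0.41) were among the falls. No gene of these lists was called without scramble replicate 1 or without scramble replicate 2. With GC and length offsets the counts of lower genes were instead 24 for ribosomal proteins, 27 for ribosome biogenesis and 21 for DNA replication. Mitosis had 18 lower and 2 higher genes with the offsets, which called 2018 of all 12420 genes tested lower. Genes held to be constant also leaned down, with 3 of 17 lower (median −0.33), among them the translation factor Eef1a1 (−0.43). None was called without either scramble library, and 10 were lower with the offsets. Of 30 CDK inhibitor and p53 target genes 6 rose and none fell (median 0.27), including the death receptor Fas (1.66) and Gadd45g (0.87). Only 2 were higher without scramble replicate 1 and 1 without scramble replicate 2. Fas (adjusted p = 0.0631) and Gadd45g (adjusted p = 0.107) were not called without scramble replicate 2. With the offsets 12 were higher and 2 lower.

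Among metabolic and stress lists, 8 of 45 genes of ATF4 and the unfolded protein response fell and 2 rose (median −0.21). Atf3, a stress transcription factor, stood at 4.22 and 3.98 CPM in Brd9 libraries, 1.66 and 0.775 CPM in Baf250A libraries and 0.696 and 0.873 CPM in Baf180 libraries, against 7.69 and 8.32 CPM in scramble libraries (−2.34, SE 0.23, adjusted p = 0.000294). The pseudokinase Trib3 (−1.24) and the serine pathway genes Psat1 (−0.40), Psph (−0.54) and Shmt2 (−0.60) fell with it. The list had 0 higher and 1 lower gene in each fit that left out a scramble library, and with the offsets 4 higher and 20 lower. Immediate early genes were split, 7 higher and 6 lower of 33 (median 0.02): Fosl1 (−0.73), Fosb (−1.10) and the EGF receptor ligands Areg (−0.94) and Hbegf (−0.67) fell, and Klf2 (0.88) and Klf4 (0.95) rose. In each fit without 1 scramble library 0 were higher and 1 was lower. Interferon-stimulated genes had 6 of 39 higher and none lower (median 0.31), including the peptide transporter genes Tap1 (1.81) and Tap2 (1.46). The counts were 2 higher and 1 lower without scramble replicate 1, and 2 and 0 without scramble replicate 2. Igf2 (4.08), an imprinted gene, was near the floor in scramble libraries, at a mean of 0.116 CPM, and at 0.361 CPM in Baf180 libraries. Its means were 3.74 CPM in Brd9 libraries and 6.15 CPM in Baf250A libraries. Imprinted genes in all had 5 of 20 higher and 1 lower (0.33), with H19 (1.27) and Mest (2.17) also higher. These counts were 3 and 1 without scramble replicate 1, and 3 and 0 without scramble replicate 2. Of lysosomal genes 4 of 42 fell (−0.03), led by cathepsin L (Ctsl, −1.13), at 231 and 221 CPM in Brd9 libraries, 231 and 247 CPM in Baf250A libraries and 176 and 159 CPM in Baf180 libraries, against 483 and 431 CPM in scramble libraries. The lysosomal list had 2 lower genes without scramble replicate 1 and 1 without scramble replicate 2, against 10 with the offsets.

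The remaining lists had calls in both directions or hardly any. Higher and lower counts were 3 and 3 of 23 for solute carriers, 4 and 3 of 36 for glycolysis and hypoxia, 1 and 3 of 36 for lipid synthesis, 3 and 0 of 30 for Nrf2 targets, 1 and 1 of 52 for oxidative phosphorylation and 0 and 0 of 19 for HOX genes. Solute carriers had 2 higher and 1 lower without scramble replicate 1, and 1 of each without scramble replicate 2. In either of those fits glycolysis and oxidative phosphorylation had 1 lower gene each, Nrf2 targets had 1 higher gene, and lipid synthesis and HOX genes had none called. With GC and length offsets lipid synthesis had 14 lower genes and glycolysis 11. Of 27 SWI/SNF subunit genes Brd9 and Pbrm1, both targets, were called lower, against 0 without scramble replicate 1, 1 without scramble replicate 2 and 9 with GC and length offsets.

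**Figure D5:**
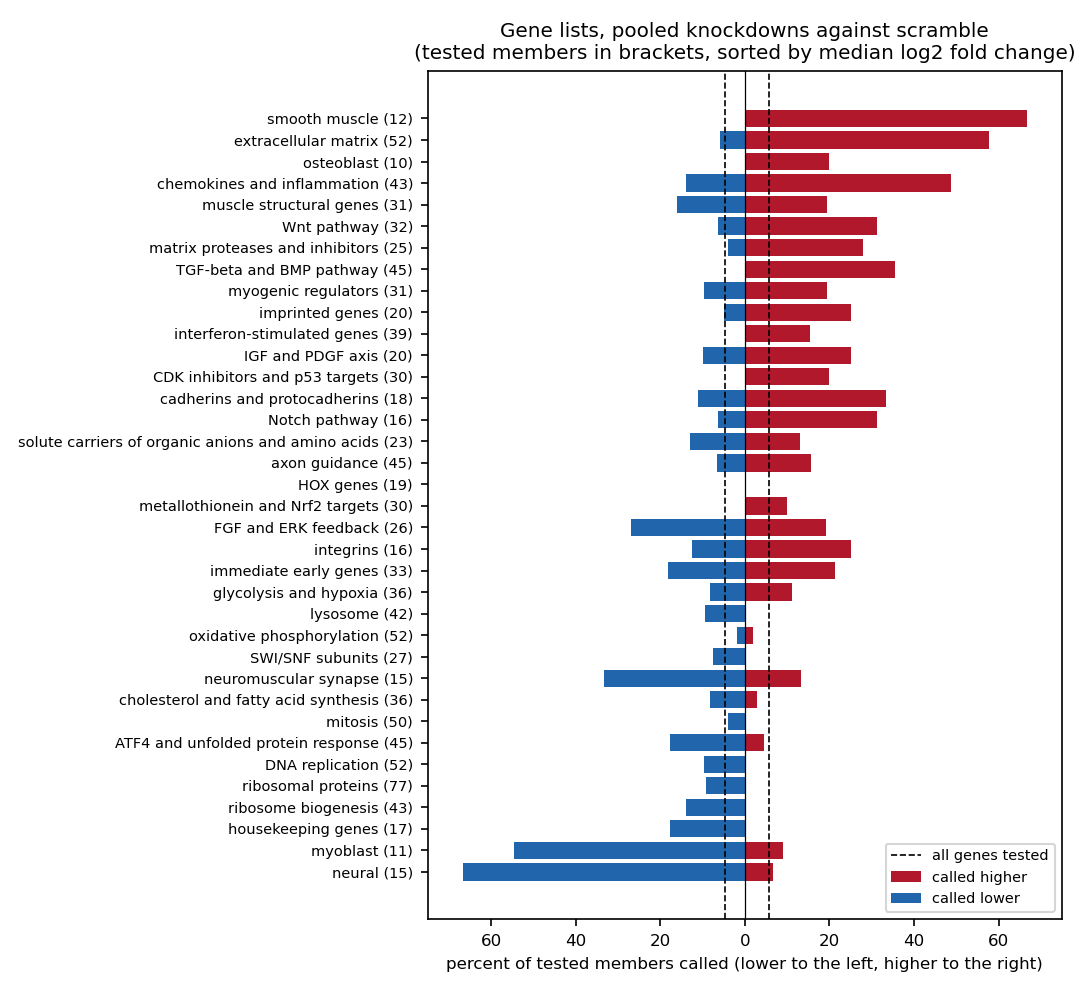
Percent of the tested genes of each list called lower (bars to the left) and higher (bars to the right) in the pooled knockdowns against scramble. Dashed lines mark the shares over all genes tested, 4.77% lower and 5.75% higher.

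Markers of other lineages stayed low, with a few exceptions. In knockdown libraries against scramble libraries the summed level of the adipocyte list was 83.6 to 148 CPM against 83.2 to 84.1 CPM, of the endothelial list 10.4 to 13.5 CPM against 8.38 to 10.1 CPM, of the macrophage list 9.71 to 16.5 CPM against 17.5 to 19.6 CPM and of the epithelial list 24.5 to 54.5 CPM against 23.3 to 24.1 CPM. Adipoq and Fabp4, Pecam1 and Cdh5, Ptprc and Csf1r, and Cdh1 and Epcam were below 1 CPM in every library. Of tested members, 1 of 3 was called higher for endothelial cells and 1 of 3 lower for macrophages. Of 4 epithelial genes 1 was higher and 1 lower. The chondrocyte list summed to 56.9 to 115 CPM in knockdown libraries and 87.2 to 96.9 CPM in scramble libraries, and Sox9 made up most of it. The osteoblast list summed to 638 to 3854 CPM in knockdown libraries and 768 to 885 CPM in scramble libraries, the Baf250A libraries being highest. Most of that sum was osteopontin (Spp1), at 2795 and 3748 CPM in Baf250A libraries, against 812 and 691 CPM in scramble libraries. Called members were 2 of 5 higher and 1 lower for adipocytes, where Cebpa (2.18), an adipogenic transcription factor, and Lpl rose. For osteoblasts 2 of 10 were higher. One was Alpl (3.62), the bone alkaline phosphatase, near the floor in scramble libraries at 0.168 and 0.058 CPM. It stood at 5.19 and 4.98 CPM in Brd9 libraries and below 1 CPM in the other knockdowns. For chondrocytes 1 of 5 was higher, Col2a1, at 34.8 and 28.3 CPM in Baf250A libraries and 5.22 and 4.04 CPM in Baf180 libraries. Its Brd9 libraries, at 0.291 and 0.157 CPM, overlapped scramble libraries, at 0.168 and 0.462 CPM. The part of other cell types in the results above was not tested.

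The called genes with all libraries on one side were compared with all genes tested in composition and length. The median GC content of transcripts was 52.4% in the higher and 52.0% in the lower genes, against 50.5% over all genes tested. Median transcript length was 3424.5 bases in the higher and 2619.62 bases in the lower genes, against 2865.5 bases over all. Across 12290 genes Spearman's rho of the log2 fold change with GC content was −0.10 for the pool, but −0.30 for Brd9, −0.53 for Baf250A and 0.59 for Baf180, the last of opposite sign to the others. Genes are not independent replicates, and these values carry no p. With GC and length offsets in the fit, 1419 genes were called higher and 2018 lower in place of 714 and 592, and 509 of the 510 higher and 387 of the 388 lower genes were still called in the same direction. On the offset-corrected levels, however, all 6 libraries lay on the same side of scramble in 367 of the 510 and 252 of the 388, so the rest no longer met the side rule.

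Neighbouring genes in the annotation order formed 37 runs of higher genes (75 genes) and 19 runs of lower genes (39 genes). These runs were named after their values were seen. How many runs would arise from gene order alone was not worked out, so their number is a description. Neighbours could lie far apart, as did Igsf11 and Gap43, whose run spanned 38892476 to 42340651 on chromosome 16. The longest runs were 3 genes. One held the complement genes C1rl, C1ra and C1s1 (chromosome 6, 124493113 to 124542392), all higher, and another held Mirt1, Dusp5 and Nutf2-ps1 (chromosome 19, 53441212 to 53589065), all lower. Pairs included Nefl with Nefm, Col6a1 with Col6a2 and H19 with Igf2.

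Promoters are shown as examples, for genes picked from the largest and the most even changes. They are from RefSeq on GRCm38.p6, 250 bases before to 50 bases after the start, read 5′ to 3′ on the gene's strand. Capitals mark matches, on either strand, to a TATA motif (spelled TATAAA), to the CCAAT box, to the GC box (spelled GGGCGG) and to the AP-1 motif (spelled TGANTCA). They also mark the motif of TEAD factors (spelled GGAATG), an E-box of myogenic factors (spelled CAGCTG) and the cyclic AMP response element, CRE (spelled TGACGTCA). Svep1 (chr4:58206547-58206846, minus strand) and Slit2 (chr5:47982905-47983204, plus strand) rose, and Sprr1a (chr3:92485832-92486131, minus strand) and Wwc1 (chr11:35980478-35980777, minus strand) fell.
Svep1: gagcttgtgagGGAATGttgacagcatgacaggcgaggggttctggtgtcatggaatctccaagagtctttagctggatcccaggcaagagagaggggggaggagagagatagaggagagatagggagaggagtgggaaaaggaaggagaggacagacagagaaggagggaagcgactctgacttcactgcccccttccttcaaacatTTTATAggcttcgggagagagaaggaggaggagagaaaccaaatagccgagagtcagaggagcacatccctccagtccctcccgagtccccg
Slit2: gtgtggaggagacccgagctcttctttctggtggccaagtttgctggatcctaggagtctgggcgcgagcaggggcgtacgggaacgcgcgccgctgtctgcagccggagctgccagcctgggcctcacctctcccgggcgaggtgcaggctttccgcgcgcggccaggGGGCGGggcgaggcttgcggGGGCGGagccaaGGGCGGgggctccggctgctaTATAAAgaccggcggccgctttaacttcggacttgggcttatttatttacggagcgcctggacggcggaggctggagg
Sprr1a: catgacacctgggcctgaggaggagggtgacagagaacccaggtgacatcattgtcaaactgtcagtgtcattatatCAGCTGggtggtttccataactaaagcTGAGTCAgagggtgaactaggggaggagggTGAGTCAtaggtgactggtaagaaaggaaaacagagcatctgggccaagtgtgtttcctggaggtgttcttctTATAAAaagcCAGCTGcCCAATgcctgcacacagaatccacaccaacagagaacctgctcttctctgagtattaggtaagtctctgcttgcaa
Wwc1: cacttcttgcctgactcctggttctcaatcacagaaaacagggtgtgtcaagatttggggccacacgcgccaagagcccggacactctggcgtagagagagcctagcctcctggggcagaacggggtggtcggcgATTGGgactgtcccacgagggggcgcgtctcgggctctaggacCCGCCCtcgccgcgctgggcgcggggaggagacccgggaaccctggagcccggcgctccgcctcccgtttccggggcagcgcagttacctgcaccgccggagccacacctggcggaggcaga
The Svep1 window held 1 TATA and 1 TEAD match. That of Slit2 held 3 GC box matches and 1 TATA match. The Sprr1a window had 2 AP-1 and 2 E-box matches with 1 TATA and 1 CCAAT match and no CG dinucleotide, whereas that of Wwc1 held 1 CCAAT and 1 GC box match. A match is a description of the letters and not of binding.

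Motif shares were counted over genes with a single listed promoter, leaving out chromosome 18. These were 295 of the higher and 221 of the lower genes, beside 7871 promoters of all genes tested. The AP-1 motif was in 5.08% of higher and 9.05% of lower promoters, against 4.54% of all. The TATA motif was in 10.8% of higher and 8.14% of lower promoters, against 6.76% of all. The TEAD motif was in 15.3% and 8.14%, against 11.7%, the E-box in 18.0% and 15.8%, against 14.4%, and the CRE in 1.36% and 3.17%, against 3.47%. The GC box was in 64.4% and 68.3%, against 67.5%, and CCAAT in 35.9% and 45.2%, against 40.0%. None of these shares was tested.

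The rule's edge is shown by called genes just inside and just outside it. Thbs2, a thrombospondin, was just inside, its lowest knockdown library at 138 CPM in Baf250A replicate 1, against 138 and 129 CPM in scramble libraries (log2 fold change 0.53), as was Sbno2, at 71.0 CPM in its lowest knockdown library against 69.5 and 71.0 CPM in scramble libraries (0.50). Itgb5, an integrin subunit, was just outside with 158 CPM in Baf250A replicate 2, against 157 and 158 CPM in scramble libraries (0.59), and Nab2, a corepressor of Egr factors, with 131 CPM in Brd9 replicate 1, against 131 and 123 CPM (0.45). Among lower genes Pwp1 (−0.44) and Reep5 (−0.39) were just inside and Mlkl (−0.57) and Ndrg2 (−0.94) just outside.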

How the data were processed

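RNA-seq was done on 8 libraries of C2C12 cells. The authors deposited a table of estimated counts per gene and library for 24573 genes, not normalized, and gene lengths in bases. The submitters' processing notes name RSEM, Bowtie2, HISAT2, StringTie, Cufflinks, DESeq2 and the build mm10, without roles. Gene annotation came from a RefSeq table, matched by ID for 24479 genes, by accession for 9 and not for 85.

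Counts were rounded to whole numbers. edgeR 4.0.16 in R 4.3.3 (filterByExpr, TMM scaling) kept 12420 genes, and quasi-likelihood fits over the 4 groups tested the mean of the 3 knockdowns minus scramble, and the difference among knockdowns, with Benjamini-Hochberg adjustment at 0.05. SE is the log2 fold change divided by the root of F. The side rule used TMM-scaled CPM. Fits were tested on simulated data. Alternatives were other scalings and filters, DESeq2 1.42.0, limma 3.58.1 voom, a replicate block, GC and length offsets (loess span 0.3), a 2-group fit and omission of each library or knockdown.

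Members and the 41 lists were chosen with earlier results of these data known. Named genes were the 10 largest rises and 10 largest falls among called genes on one side with a mean of at least 5 CPM, of these the 4 most even per direction with an absolute log2 fold change of at least 1 in each knockdown, 2 members per list, 2 genes per direction just inside and outside the rule, and the targets. Other list members, Wnt7b, the 25 genes of the 2-group fit and the neighbour runs were named after their values were seen. Intervals cover counting error only.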

Additional observations from a re-analysis of the deposited data

Results flagged for a closer look

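The change from scramble differed between the knockdowns in 84 of the 103 named genes, by edgeR's quasi-likelihood test of the difference among the 3 knockdowns, which does not use scramble. That test called 8438 of the 12420 genes tested (67.9%). The adjusted p follows each gene. For the targets, each low in its own knockdown, it called Brd9 (3.69e-05), Arid1a (0.000125) and Pbrm1 (4.01e-05). Of the largest rises it called Aoc3 (9.05e-05), Dhrs3 (0.00812), Fndc1 (4.83e-05), Igdcc4 (5.55e-05), Il1rn (0.00172), Lama4 (0.000103), Lpl (0.000569), Sfrp2 (0.00591) and Svep1 (6.83e-05), and of the largest falls Chrnd (3.74e-05), Gap43 (8.59e-05), Igsf5 (0.000626), Nefl (9.61e-06), Nefm (7.42e-05), Ngfr (0.000368), Osbp2 (8.16e-06), Sprr1a (0.000569), Stmn4 (1.86e-05) and Xirp1 (0.000226). Other named genes with a higher pooled level that differed were Adamts2 (0.00145), Adamts5 (0.0390), Alpl (0.000235), Ccn5 (0.000654), Cebpa (0.00269), Cnn1 (0.000814), Col2a1 (2.22e-05), Ddit4 (0.0288), Fat1 (0.00140), Fst (0.0409), Gadd45g (0.0163), Gbp2 (0.000103), Gstm2 (0.00110), H19 (0.000200), Inhbb (0.000107), Itga11 (0.000348), Itgb3 (0.000127), Itgb5 (0.000232), Klf4 (0.0286), Krt19 (0.00271), Lmod1 (0.00192), Mest (0.00521), Nab2 (0.0175), Nid2 (0.00602), Notch3 (0.000103), Nqo1 (0.00202), Pdgfra (0.0276), Sbno2 (0.00983), Slc1a3 (0.00360), Sox18 (0.0160), Spp1 (0.000148), Spry1 (0.000285), Tap1 (0.000351), Tgfb3 (0.000478) and Thbs2 (0.000734). Those with a lower pooled level were Acaca (0.00793), Atf3 (0.000986), Chrna1 (6.63e-06), Cldn4 (0.0108), Col7a1 (0.0235), Ctsh (0.000601), Ctsl (0.0133), Dok7 (0.00346), Fads1 (0.0134), Gusb (0.00130), Igfbp2 (1.30e-05), Jag2 (0.00318), Mfsd2a (0.00595), Mlkl (0.00171), Msc (0.000291), Ndrg2 (0.000649), Nop56 (0.000683), Pcdh1 (0.000267), Pfkp (0.000310), Pwp1 (0.00422), Reep5 (0.000710), Sdhd (0.000168), Sema6a (3.32e-05), Slco4a1 (1.86e-05), Trib3 (0.00638), Utp4 (0.00218) and Wwc1 (0.0474). Igdcc4 had log2 fold changes of 4.83 in Brd9, 1.11 in Baf250A and 4.23 in Baf180 libraries, and Lpl had 4.21, 3.77 and 1.46 in the same order. Nefl fell by 2.36 in Brd9 libraries, 4.48 in Baf250A libraries and 7.02 in Baf180 libraries. The cause of these differences was not tested.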

How the results depend on the processing

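The pooled test called 1306 genes, and 328 to 1381 with 1 library left out, the lowest counts being 472 and 328 without scramble replicate 1 and 2. Genes called higher with all 6 libraries above scramble numbered 510 (174 to 552 with 1 library left out), those called lower 388 (124 to 519) and those differing among knockdowns 8438 (5836 to 8648). Where a library or a knockdown was left out, the side rule covered only the libraries kept. It was looser there, and counts on one side from such fits are not like for like with 510 and 388. At an adjusted p below 0.01 the 4 counts were 583, 290, 189 and 5614. Against a fold change of 1.5 the first 3 were 356, 184 and 113, and with the knockdowns as 1 group 25, 21 and 4. GC and length offsets gave 3437 genes called and 620 lower on one side. The pool without Baf250A gave 2030, 1112 and 654, and without Baf180 it gave 2200, 983 and 894. Other scalings, DESeq2, limma-voom, both filters on low counts and the pool without Brd9 kept each of these counts within 1.5 times. Differences between replicates 1 and 2 correlated across genes at 0.57 for Baf250A with Baf180 and at −0.60 for Brd9 with each of them. With scramble the knockdowns correlated at −0.04 to 0.15. The knockdown libraries thus shared a pattern in which the Brd9 numbers ran the other way, and its source was not tested. A fit with a replicate block by number, which does not follow the reversed Brd9 numbers, called 953, 410, 278 and 7596 genes. Of 103 named genes, 35 were no longer called without scramble replicate 1 and 37 without scramble replicate 2. The sign changed for Arid1a (0.11) and Chrna1 (0.0024) without Baf250A, and for Pbrm1 without Baf180 (0.52) and in the 2-group fit (0.018). The list median changed sign for integrins with offsets (−0.02, against 0.05) and for immediate early genes with upper-quartile scaling (−0.01, against 0.02). The cause of these changes was not tested. The fit had 2 libraries per group and 4 residual degrees of freedom.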
